A study of Nicotiana with 12 samples.

Results

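The genes described are GA20OX1 and GA3ox1, 2 enzymes of gibberellin synthesis, and IAA3 and IAA16, 2 repressors of auxin response, in tobacco leaves that differ in genotype and water supply. They were taken as all probe sets whose gene symbol in the probe annotation is GA20OX1, GA3ox1, IAA3 or IAA16, which gave 4 of the 802 named genes and 6 of the 10209 probe sets of the array. GA20OX1 and GA3ox1 have 1 probe set each, and IAA3 and IAA16 have 2 each. The genes were selected on their log2 levels in all 4 groups of leaves, and the comparisons below use the same levels. Their levels and differences are given as a description, and no p-value is given for them.

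Leaf RNA of Nicotiana plants about 10 weeks old was read on the Affymetrix Tomato Genome Array. The 4 groups, with 3 biological replicates and 1 array per replicate, were stressed PSARK::IPT, watered PSARK::IPT, stressed wild type (WT) and watered WT. Stressed plants were given 300 mL of water a day and watered plants 1000 mL, for 45 days after 3-week-old plants had been moved to a greenhouse. PSARK::IPT plants, called IPT below, carry the cytokinin synthesis gene of isopentenyltransferase behind the promoter of a senescence-associated receptor kinase, so that cytokinin is made as leaves begin to senesce. The labels give the genus but no species, and whether the IPT plants came from several independent lines is not given in the sources used here. No named probe set reads the transgene, so its level could not be checked.

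Gibberellins are growth hormones made from a diterpene by cyclases, oxidases and, in the last steps, dioxygenases. The gibberellin 20-oxidases remove a carbon to make the inactive precursors, and the gibberellin 3-oxidases turn these into the hormones that cells perceive. The hormone acts by causing DELLA proteins, repressors of growth, to be degraded, and in many plants the genes of these oxidases are repressed when the hormone is abundant. Auxin acts in a similar way: Aux/IAA proteins such as IAA3 and IAA16 hold auxin response factors in check and are degraded when auxin is present. Many Aux/IAA genes are themselves induced by auxin, and in leaves both hormones are known for their part in cell expansion.

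Tobacco RNA was read with probes designed on tomato, so each probe set was compared with itself between groups, and a probe set may read related tobacco genes. In the manufacturer's naming, S1 and A1 in a probe set's name mark sense and antisense orientation relative to the sequence it was designed on. Values are log2 levels after RMA (robust multi-array average, which corrects background, normalises the arrays and combines the probes of a set). A difference of 1 is therefore 2-fold. Array medians lay between 3.38 and 3.45, and r between replicate arrays was 0.982 to 0.992. Of the marker genes of leaf mesophyll, 8 were on the array, between percentiles 84.8 and 99.9 of the probe sets of every array, and 4 genes of ripening fruit lay between 0.84 and 58.2. The flower, pollen and meristem markers that were listed had no probe set under those symbols. In bulk leaf RNA, fewer cells of a type and less RNA per cell cannot be told apart.

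The labelling controls moved with the groups. The array carries probe sets at the 3' and at the 5' end of poly-A control RNAs, and the 3' sets were brighter by 3.42 ± 0.14 in stressed IPT, 2.67 ± 0.45 in watered IPT, 4.36 ± 0.94 in stressed WT and 2.24 ± 0.07 in watered WT (SD, n = 3). This excess was larger in the stressed than in the watered group of each genotype. In WT it was 3.70 to 5.43 on stressed and 2.18 to 2.32 on watered arrays. In IPT it was 3.34 to 3.58 and 2.21 to 3.11. All comparisons were also computed with this excess as a covariate, called the poly-A covariate below. Since it moved with water supply, the parts of the 2 in a stress difference cannot be fully told apart. Under stress the excess was also lower on every IPT array than on every WT array, so the same holds between stressed genotypes. A call lost with the covariate does not show that a difference was absent.

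**Figure D1:**
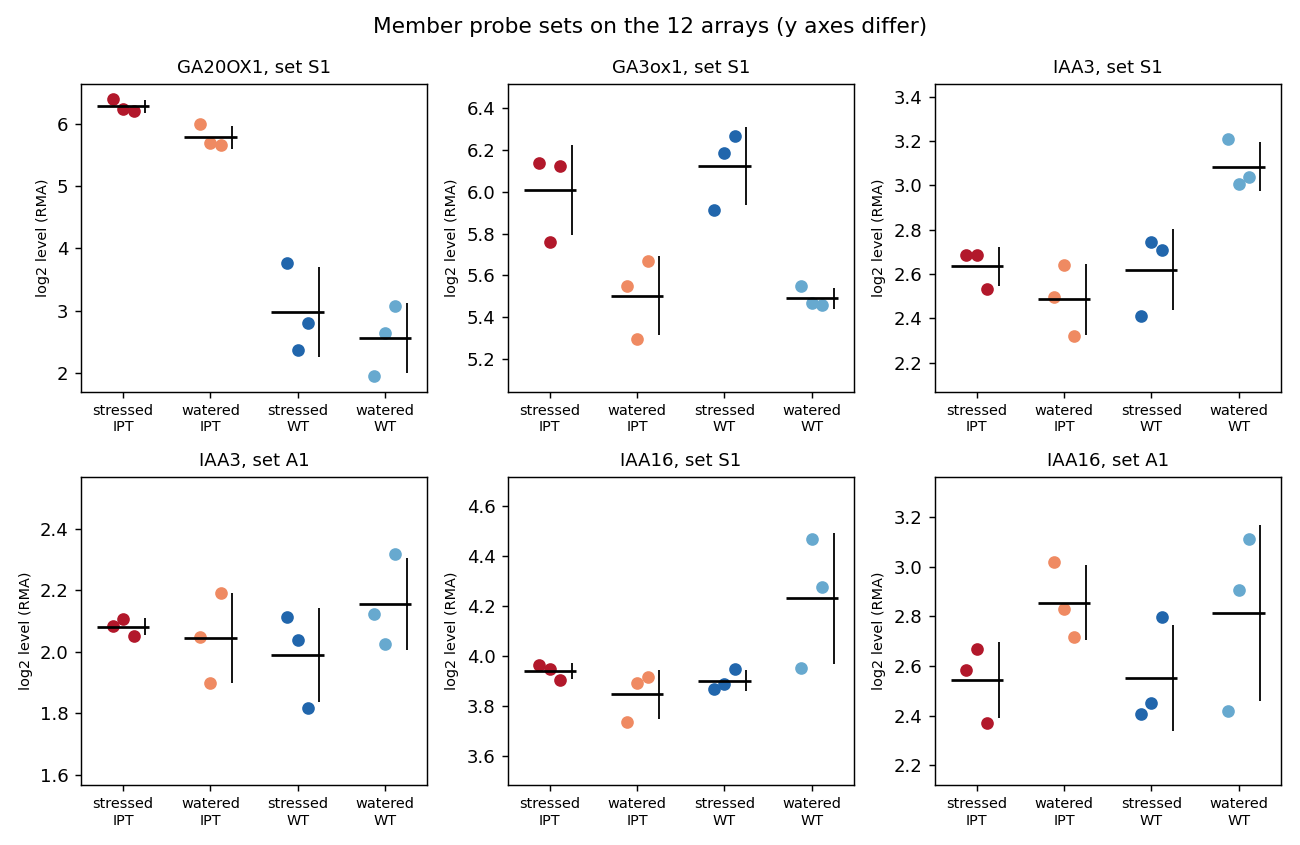
Log2 level (RMA) of the 6 probe sets on each of the 12 arrays. Points are arrays, horizontal lines are group means and vertical lines are ± 1 SD (n = 3). The 6 IPT arrays of GA20OX1 sit between 5.67 and 6.40, all above the 6 WT arrays, and the watered WT arrays of IAA3 set S1 sit between 3.00 and 3.21, above every other array.

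GA20OX1, a gibberellin 20-oxidase, was higher in IPT than in WT leaves at both water supplies. In watered IPT leaves its level was 6.00, 5.70 and 5.67, against 1.95, 2.65 and 3.07 in watered WT leaves. In stressed IPT leaves it was 6.40, 6.24 and 6.21, against 3.77, 2.36 and 2.81 in stressed WT leaves. Every IPT array lay above every WT array, and the nearest arrays of the genotypes were 2.60 apart when watered and 2.45 apart under stress. The IPT minus WT difference of the measured signals was 3.23 (SE 0.29), or 9.40-fold, with 1000 mL of water, and 3.31 (SE 0.29), or 9.92-fold, with 300 mL. The WT signals were not shown to lie above background, so these folds describe signals and not amounts of RNA. Over all alternative settings it stayed between 2.93 and 3.49 in the first case and between 2.97 and 3.70 in the second.

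The spread of GA20OX1 differed between the genotypes. Its SD was 0.10 in stressed IPT and 0.18 in watered IPT, against 0.72 in stressed WT and 0.57 in watered WT (n = 3 each). Its residual SD of 0.47 was as large as or larger than that of 99.7% of all probe sets. On the WT arrays it ranged between percentiles 4.99 and 57.4 of the array, and on the IPT arrays between 84.0 and 89.8. The 17 Tag control probe sets, for artificial sequences, lay between 1.83 and 4.67 over all arrays, a range that holds the 6 WT values of GA20OX1 and none of its 6 IPT values. The median Tag value was 2.77, and the medians of single Tag sets ran from 2.10 to 4.38. The array medians of 3.38 to 3.45 lie inside the Tag range as well. A level within that range is therefore not shown to be background, and 4.67 is not a detection limit. Detection calls were not used here, and the part of background in the WT signals was not tested.

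Water made a smaller difference to GA20OX1. The stressed IPT arrays lay above the watered IPT arrays by 0.22 at their nearest, and the difference of the means was 0.50 (SE 0.29). In WT the arrays of the stressed and watered groups overlapped, with a difference of 0.42 (SE 0.29). The stress effect in IPT minus that in WT was 0.08 (SE 0.41). The level was thus highest in stressed IPT, then watered IPT, then stressed and watered WT, and only the WT groups overlapped. With the poly-A covariate the stress difference was 0.78 (SE 0.33) in IPT and 1.20 (SE 0.56) in WT, and the stress effect in IPT minus that in WT was -0.42 (SE 0.50). Leaving out stressed WT replicate 1, the highest WT array, brought the WT value to 0.03.

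GA3ox1, a gibberellin 3-oxidase of the step that yields active hormone, was higher in stressed than in watered leaves of both genotypes. In stressed IPT leaves its level was 6.14, 5.76 and 6.13, against 5.55, 5.30 and 5.67 in watered IPT leaves. In stressed WT leaves it was 5.91, 6.19 and 6.27, against 5.55, 5.47 and 5.46 in watered WT leaves. All 6 stressed arrays lay above all 6 watered arrays, although the gap in IPT was only 0.09. Stressed minus watered, GA3ox1 differed by 0.50 (SE 0.14), or 1.42-fold, in IPT and by 0.63 (SE 0.14), or 1.55-fold, in WT. The stress effect in IPT minus that in WT was -0.13 (SE 0.20).

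Between genotypes the GA3ox1 arrays overlapped at either water supply. The IPT minus WT difference was 0.01 (SE 0.14) when watered and -0.11 (SE 0.14) under stress, against 3.23 and 3.31 for GA20OX1 on the same arrays. With the poly-A covariate the stress difference of GA3ox1 was 0.41 (SE 0.16) in IPT and 0.38 (SE 0.28) in WT. This moved the value in WT by over 1.5 times, and the part of the covariate in the difference was not tested. GA3ox1 lay between percentiles 79.9 and 88.8 on all 12 arrays, and its levels of 5.30 to 6.27 were above the range of the Tag controls.

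IAA3, an Aux/IAA repressor, was highest in watered WT leaves by its set S1. That set stood at 2.49, 2.64 and 2.32 in watered IPT leaves, against 3.21, 3.00 and 3.04 in watered WT leaves. It stood at 2.69, 2.68 and 2.53 in stressed IPT leaves, against 2.41, 2.74 and 2.71 in stressed WT leaves. The 3 watered WT arrays lay above the 9 others, and those 9 overlapped across their groups. The IPT minus WT difference was -0.60 (SE 0.13) when watered, which is 1.51-fold lower in IPT, and 0.01 (SE 0.13) under stress. Stressed minus watered, IAA3 differed by 0.15 (SE 0.13) in IPT, where the arrays overlapped, and by -0.46 (SE 0.13) in WT.

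The stress effect on IAA3 set S1 in IPT minus that in WT was 0.61 (SE 0.18), a size that 5.48% of all probe sets reached. That difference and the WT and watered genotype differences rest on the same 3 watered WT arrays. Those arrays also had the brightest poly-A controls: their mean level was 8.58 ± 0.09 in stressed IPT, 8.32 ± 0.14 in watered IPT, 8.04 ± 0.41 in stressed WT and 10.06 ± 0.05 in watered WT (SD, n = 3). The part of that level in the IAA3 and IAA16 differences was not tested. With the poly-A covariate the 3 values were 0.63 (SE 0.23), -0.49 (SE 0.26) and -0.60 (SE 0.14). Set A1 of IAA3 was dim on every array, between 1.82 and 2.32 and percentiles 2.11 and 17.4. Its groups overlapped in all 4 comparisons, with an IPT minus WT difference of -0.11 (SE 0.12) when watered and a stress difference of -0.17 (SE 0.12) in WT.

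IAA16, another Aux/IAA repressor, had its highest levels in watered WT leaves too by its set S1, with more spread. Set S1 stood at 3.73, 3.89 and 3.91 in watered IPT leaves, against 3.95, 4.47 and 4.28 in watered WT leaves. It stood at 3.96, 3.95 and 3.91 in stressed IPT leaves, against 3.87, 3.89 and 3.95 in stressed WT leaves. Watered WT replicate 1, at 3.95, lay among the arrays of the other groups, and the other two watered WT arrays stood above all of them. The IPT minus WT difference was -0.38 (SE 0.13) when watered, with a gap of 0.04 between the nearest arrays, and 0.04 (SE 0.13) under stress. Stressed minus watered, it differed by 0.09 (SE 0.13) in IPT and by -0.33 (SE 0.13) in WT, where the nearest arrays were 0.002 apart. The WT value was -0.47 without watered WT replicate 1 and -0.21 without watered WT replicate 2. The stress effect in IPT minus that in WT was 0.42 (SE 0.18), a size that 15.2% of all probe sets reached.

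Set A1 of IAA16 gave another pattern. It stood at 2.58, 2.67 and 2.37 in stressed IPT leaves, against 3.02, 2.83 and 2.72 in watered IPT leaves. In WT it stood at 2.41, 2.45 and 2.80 when stressed, against 2.42, 2.91 and 3.11 when watered. The stressed arrays lay below the watered arrays in IPT, with a difference of -0.31 (SE 0.17), and overlapped with them in WT, with -0.26 (SE 0.17). That WT value was -0.46 without watered WT replicate 1, -0.11 without watered WT replicate 3 and -0.06 with the poly-A covariate. Between genotypes set A1 differed by 0.04 (SE 0.17) when watered and by -0.01 (SE 0.17) under stress. The 2 sets of IAA16 thus gave different values between watered genotypes (S1 -0.38, A1 0.04) and for stress in IPT (S1 0.09, A1 -0.31). The sign of the A1 value between watered genotypes was not settled, at -0.15 without watered WT replicate 1, -0.04 without watered IPT replicate 1 and 0.19 without watered WT replicate 3. All 4 sets of IAA3 and IAA16 lay below 4.67, the highest Tag control value, on all 12 arrays. Set S1 of IAA16, at percentiles 56.41 to 70.05, lay above the Tag median of 2.77 on every array.

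**Figure D2:**
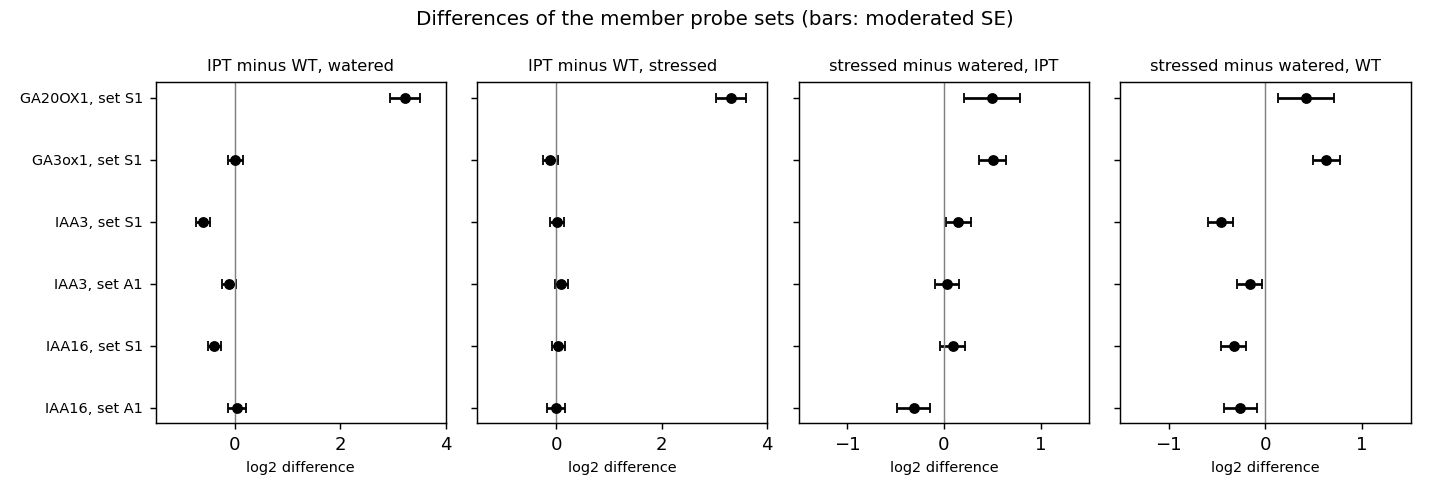
Log2 differences of the 6 probe sets in 4 comparisons, with bars of 1 moderated standard error (n = 3 arrays per group). The x axes of the genotype comparisons are wider than those of the water comparisons. GA20OX1 stands at 3.23 and 3.31 in the genotype comparisons, GA3ox1 at 0.50 and 0.63 in the water comparisons, and set S1 of IAA3 at -0.60 between watered genotypes.

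Counts of the 6 probe sets are set beside those of all 10101 probe sets tested, and nothing is read from them, since these comparisons chose the genes. Between watered genotypes the arrays of IPT and WT did not overlap in 3 of the 6, against 31.5% of all. Between stressed genotypes they did not overlap in 1 of 6, against 30% of all. Stressed and watered arrays did not overlap in 3 of 6 in IPT, against 22.6% of all, and in 3 of 6 in WT, against 27.7% of all. With a limma adjusted p under 0.05 as the threshold, 2 of the 6 were called between watered genotypes (13.8% of all) and 1 between stressed genotypes (16.7% of all). By the same threshold 0 were called for stress in IPT (1.36% of all), 2 for stress in WT (11.3% of all) and 0 for the difference of the stress effects (1.9% of all). At an unadjusted p under 0.05 the last 3 counts were 1 (14.2% of all), 3 (25% of all) and 2 (14.2% of all). The median difference of the 6 was -0.05 between watered genotypes, 0.03 between stressed genotypes, 0.12 for stress in IPT and -0.21 for stress in WT, against 0.02, -0.01, 0.00 and 0.04 over all probe sets.

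**Figure D3:**
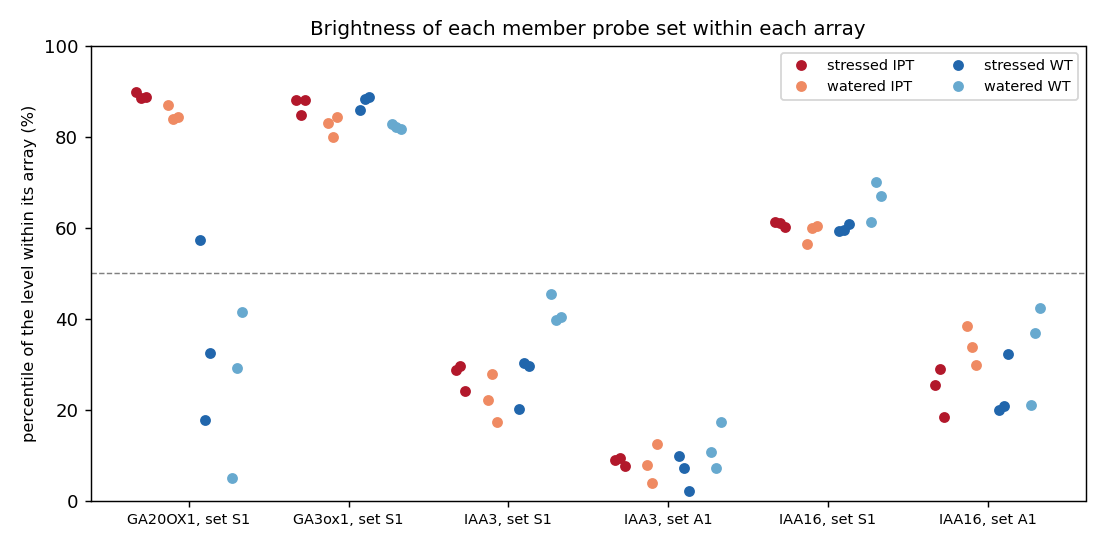
Percentile of each of the 6 probe sets among the 10101 probe sets of each array; the dashed line is the array median. GA20OX1 lies between 84.0 and 89.8 on IPT arrays and between 4.99 and 57.4 on WT arrays, GA3ox1 lies near 80 to 90 on all arrays, and set A1 of IAA3 lies below 20.

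Over the 12 arrays, the named genes whose levels followed GA20OX1 most closely were GSA-AT (Pearson r = 0.973), GS2 (0.963) and VDE (0.956). GSA-AT, glutamate-1-semialdehyde aminotransferase, acts in the synthesis of the chlorophyll precursor, GS2 is the plastid glutamine synthetase, and VDE is violaxanthin de-epoxidase of the xanthophyll cycle. GSA-AT averaged 8.22 ± 0.10 in stressed IPT, 8.05 ± 0.09 in watered IPT, 7.18 ± 0.14 in stressed WT and 6.96 ± 0.03 in watered WT (SD, n = 3), the same order of groups as GA20OX1. VDE shared the parting of the genotypes but was lower in the stressed than in the watered group of each, at 8.76 against 9.05 in IPT and 5.77 against 6.23 in WT.

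GA3ox1 was followed most closely by SBT2 (r = 0.879), a subtilisin-like protease, ACO5 (0.850), an ACC oxidase of ethylene synthesis, and cat1 (0.846), a catalase. SBT2 averaged 3.11 ± 0.06 in stressed IPT, 2.78 ± 0.05 in watered IPT, 3.07 ± 0.18 in stressed WT and 2.79 ± 0.11 in watered WT. The closest to set S1 of IAA3 were PR-P2 (0.882), a pathogenesis-related protein, ERF3 (0.805), an ethylene response factor, and LOC544153 (0.779). To set S1 of IAA16 they were AOX1a (0.885), the alternative oxidase of mitochondria, IMP3 (0.850), an inositol monophosphatase, and LOC606305 (0.835). AOX1a averaged 5.42 ± 0.21 in stressed IPT, 5.39 ± 0.08 in watered IPT, 5.46 ± 0.04 in stressed WT and 5.92 ± 0.35 in watered WT, highest in the group where set S1 of IAA16 was highest. These r describe 12 arrays that fall into 4 groups, and they were picked as the highest of the named probe sets. By Spearman's rho, 0 of the 3 genes named for GA20OX1, 1 for GA3ox1, 2 for IAA3 and 0 for IAA16 were again among the closest.

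Of the 4 other gibberellin genes and 5 other auxin genes listed, 0 passed limma's test at an adjusted p under 0.05 in any of the 5 comparisons. Over all probe sets the share that passed ran from 1.36% for stress in IPT to 16.7% between stressed genotypes, so nothing is read from this count. At an unadjusted p under 0.05, 1 of these 9 passed between stressed genotypes (27.4% of all probe sets) and 1 for stress in WT (25% of all). The gibberellin genes were CPS, the cyclase of the first step, GAI, a DELLA repressor, SPY, a repressor of the gibberellin signal, and RSI-1, a relative of the gibberellin-stimulated tomato gene GAST1 that is also known as auxin-induced in roots. GAI differed by 0.18 (SE 0.12) between watered genotypes and by -0.08 (SE 0.12) between stressed genotypes, and CPS by 0.18 (SE 0.20) and -0.18 (SE 0.20). SPY differed by -0.04 and -0.18, and RSI-1 by 0.07 and 0.13. Stressed minus watered, the 4 lay between -0.20 and 0.01 in IPT and between -0.05 and 0.26 in WT.

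Among the auxin genes, the largest values were those of IAA27 and IAA7, both Aux/IAA repressors. IAA7 stood at 3.86, 4.01 and 4.43 in stressed WT leaves, against 4.64, 4.59 and 4.44 in watered WT leaves, a difference of -0.46 (SE 0.15, limma adjusted p = 0.0608). IAA27 stood at 2.26, 2.96 and 3.05 in stressed IPT leaves, against 3.23, 3.13 and 3.56 in stressed WT leaves, a difference of -0.55 (SE 0.21, limma adjusted p = 0.098). Neither passed, although the arrays did not overlap. That held for 27.7% of all probe sets for stress in WT and for 30% between stressed genotypes. The nearest arrays of IAA7 stood at 4.43 and 4.44, and both sets lay within the range of the Tag controls. The other probe sets stood at -0.16 (IAA7, SE 0.15) and 0.05 (IAA27, SE 0.15) in the same comparisons. The Aux/IAA genes IAA2 (0.08, SE 0.13) and IAA17 (0.16, SE 0.14) and the auxin response factor ARF3 (0.09, SE 0.14) did not pass between watered genotypes. The median difference of the 9 genes was 0.08 between watered genotypes, -0.08 between stressed genotypes, -0.11 for stress in IPT and 0.04 for stress in WT, against 0.02, -0.01, 0.00 and 0.04 over all probe sets.

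The probe annotation also holds 20ox-2, 20ox-3 and 3OH-2, tomato symbols for further gibberellin 20-oxidases and a 3-oxidase, which the list of symbols had missed. They were added after the data were seen, with ERABP1, an auxin-binding protein, and CYP85A1, a brassinosteroid synthesis enzyme. 20ox-3 stood at 2.79, 2.80 and 2.74 in stressed IPT leaves, against 2.55, 2.08 and 2.09 in stressed WT leaves, and was higher by 0.53 (SE 0.14, limma adjusted p = 0.0127). It lay between 2.08 and 2.80 on all 12 arrays, within the range of the Tag controls. The call was lost with the poly-A covariate (0.42, adjusted p = 0.136) and without stressed WT replicate 2 (adjusted p = 0.0559) or 3 (0.0561). Between watered genotypes 20ox-3 differed by 0.33 (SE 0.14, adjusted p = 0.142), and 20ox-2 did not pass in either genotype comparison (0.10 and 0.27, SE 0.16).

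3OH-2 rose with stress in WT. It stood at 4.90, 4.87 and 4.68 in stressed WT leaves, against 4.33, 4.24 and 4.49 in watered WT leaves, a difference of 0.46 (SE 0.12, limma adjusted p = 0.023). In IPT it differed by 0.20 (SE 0.12, adjusted p = 0.5) with overlapping arrays, and the difference of the stress effects was -0.26 (SE 0.18, adjusted p = 0.546). The call in WT was lost with the poly-A covariate (0.29, adjusted p = 0.742). It was also lost without watered WT replicate 1 (adjusted p = 0.0671) or 2 (0.0926), without stressed WT replicate 1 (0.0715) or 2 (0.0733), and with only WT arrays fitted (0.0604). The watered WT values of 3OH-2 lay below 4.67, the highest Tag control value, and the stressed WT values lay above it.

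By its set A1, CYP85A1 was higher in stressed IPT leaves, at 4.72, 4.84 and 5.15, than in stressed WT leaves, at 3.95, 4.23 and 3.86. The difference was 0.89 (SE 0.16, limma adjusted p = 0.000904), and it passed in all 14 alternatives run for it. Its other probe set, marked S1 and designed on a different sequence, differed by -0.01 (SE 0.14) there. That set was dim, with a mean of 2.25 over all arrays against 4.47 for set A1. The stressed WT values of set A1 lay below 4.67, the highest Tag control value. Between watered genotypes set A1 differed by 0.19 (SE 0.16, adjusted p = 0.511), and the difference of its stress effects was 0.70 (SE 0.23, adjusted p = 0.149). ERABP1 did not pass, with IPT minus WT differences of -0.42 (SE 0.18, adjusted p = 0.149) when watered and -0.52 (SE 0.18, adjusted p = 0.0598) under stress.

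**Figure D4:**
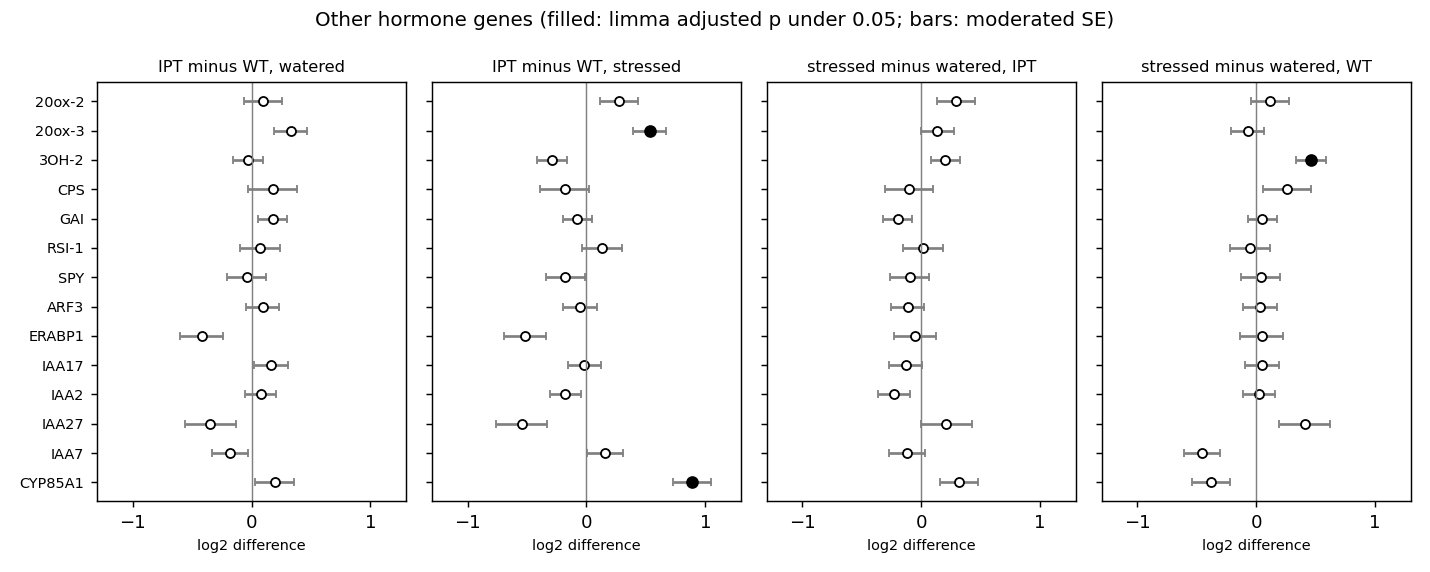
Log2 differences of the other gibberellin genes (20ox-2 to SPY), auxin genes (ARF3 to IAA7) and CYP85A1 in 4 comparisons, with bars of 1 moderated standard error. Filled points passed limma's test at an adjusted p under 0.05: 20ox-3 (0.53) and CYP85A1 (set A1, 0.89) between stressed genotypes and 3OH-2 (0.46) for stress in WT.

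Expansins loosen the cell wall and are known targets of both hormones. Of 12 expansin genes, 2 were higher in IPT under stress, 0 were lower and 10 did not pass. Of all probe sets, 16.7% were called in that comparison (8.24% higher and 8.42% lower). The count of expansins called was near the share in either direction, although all of those called were higher. The expansins had a median difference of 0.15, against -0.01 over all probe sets. EXP2 stood at 3.13, 3.44 and 3.12 in stressed IPT leaves, against 2.34, 2.19 and 2.61 in stressed WT leaves, a difference of 0.85 (SE 0.13, limma adjusted p = 0.000239). EXPA4 stood at 4.16, 4.58 and 4.06 in stressed IPT leaves, against 3.78, 3.82 and 3.69 in stressed WT leaves, a difference of 0.50 (SE 0.14, adjusted p = 0.0211). EXP2 passed in all 13 alternatives run for it, but the filter on dim sets drops it. On all 12 arrays EXP2 (2.19 to 3.44), EXPA4 (up to 4.58) and EXP12 (up to 3.92) lay within the range of the Tag controls. EXPA4 did not pass without stressed IPT replicate 2 (0.35, adjusted p = 0.117) or stressed WT replicate 3 (0.0668), with only the stressed arrays in the fit (0.0509) or with the poly-A covariate (0.0558).

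Between watered genotypes 0 of the 12 expansins passed limma's test, with 1 at an unadjusted p under 0.05 (25.3% of all probe sets). For stress in IPT 0 passed and 2 had an unadjusted p under 0.05 (14.2% of all), and EXP2 (0.52, SE 0.13, adjusted p = 0.0732) and EXPA4 (0.52, SE 0.14, adjusted p = 0.0911) came closest. For stress in WT 1 of the 12 passed, against 11.3% of all probe sets in either direction and 5.63% upward. This was EXP12, which stood at 3.79, 3.92 and 3.76 in stressed leaves, against 3.14, 3.32 and 3.52 in watered leaves (0.50, SE 0.13, adjusted p = 0.0172). With the poly-A covariate EXP12 differed by 0.22 (adjusted p = 0.818). Its call was also lost without watered WT replicate 1 (adjusted p = 0.0801) or 2 (0.0509), without stressed WT replicate 2 (0.0655), and with only WT arrays fitted (0.054). The difference of the stress effects passed in 0 of the 12 (1.9% of all probe sets), with 3 at an unadjusted p under 0.05 (14.2% of all). The listed symbols of cytokinin genes, and of brassinosteroid genes other than the added CYP85A1, matched no probe set.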

How the data were processed

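Total RNA of 12 leaf samples was labelled and hybridised singly to tomato arrays, per the labels' protocols. The submitters' processing notes name RMA, without version or options, for the deposited values, whose range of 1.28 to 13.84 is that of log2 levels. Precision is limited by the number of arrays. The labels call the samples biological replicates.

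Without the 108 AFFX controls, 10101 probe sets were tested with no filter on level, 909 of them with 1 gene symbol and 9192 with none. limma 3.58.1 estimated 4 group means from the 12 arrays in R 4.3.3 (8 residual and 7.99 prior degrees of freedom). Errors are moderated standard errors, tests are two-sided, and p-values were Benjamini-Hochberg adjusted over all probe sets of a comparison.

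The genes and lists were chosen with earlier results of these data known. Named were all probe sets of the 4 genes, the 3 named genes with the highest Pearson r to each (those of the A1 sets are left out of the text), all other gibberellin and auxin genes, and up to 3 called genes of each further list. A gene entered by its probe set of highest mean. The fit was tested on simulated data. Alternatives are given in the closing section. The 12 poly-A controls used are the array's own r2-Bs sets. Replicate numbers came from the labels; same-numbered arrays did not deviate together.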

Additional observations from a re-analysis of the deposited data

How the results depend on the processing

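Differences of the 6 probe sets were recomputed 435 times over 30 values, and 430 recomputed values lay within 1 residual SD of the reported one; no called value changed sign. The 5 that moved further came with the poly-A covariate. They were GA20OX1 for stress in WT (1.20) and for the difference of the stress effects (-0.42), GA3ox1 for stress in WT (0.38), and set A1 of IAA3 for stress in WT (-0.42) and for the difference of the stress effects (0.37). The cause was not tested. An intensity trend, dim sets left out, the replicate number as a block and only the groups compared leave the estimates unchanged by design. Those recomputed values therefore could not move. For GA20OX1 the residual SD of 0.47 is also a wide measure. Its stress value in WT ran from 0.03 to 1.20, and only the latter counted as moved. Sets below the median level have no value with dim sets left out, and the difference of the stress effects uses all arrays, so it has none with only the groups compared. Between watered genotypes 3 of the 6 were called with median-centring (1349 of all 10101 probe sets) or array weights (1677). It was also 3 without watered WT replicate 1 (1115), and 2 of the 3 kept with dim sets left out (1384 of all kept). For stress in WT 0 were called with the poly-A covariate (59) and 1 with only the WT arrays (694). It was 1 as well without watered WT replicate 3 (875) or stressed WT replicate 1 (1024). Nothing is read from these counts. The count of the 21 other hormone and expansin genes called was 2 between stressed genotypes. It was 1 with dim sets left out, with the poly-A covariate or with only the stressed arrays, between 1 and 2 when an array was left out, and 4 with the genes added later. For stress in WT it was 1 (EXP12), and 2 with median-centring or dim sets left out (IAA7 too) and with the added genes. It was 0 with the poly-A covariate or only the WT arrays, and between 0 and 2 when an array was left out. The count was 0 between watered genotypes, 1 (exp9) with only the watered arrays, and 0 to 1 when an array was left out. It was 0 for stress in IPT, 1 (EXP2) with array weights, and 0 to 1 when an array was left out. For the difference of the stress effects it was 0, 1 (EXP2) with median-centring or quantile normalization, and 0 to 1 when an array was left out. Over all probe sets, the called count for stress in WT was 1142, 59 with the poly-A covariate, 694 with only the WT arrays and 748 without stressed WT replicate 2. Between stressed genotypes the called count was 1682, and 1242 with the poly-A covariate. For stress in IPT it was 137, 254 with array weights, 228 with an intensity trend, 64 with the poly-A covariate and between 54 and 244 when an array was left out. For the difference of the stress effects it was 192, 332 with an intensity trend, 300 with dim sets left out and 120 with the poly-A covariate. Median-centring turned the share of higher calls between watered genotypes to 44.9%, against 55.7%. With the replicate number as a block (replicate block), estimates were the same and the count for stress in IPT was 110 in place of 137. Deviations of same-numbered arrays correlated between -0.19 and 0.07, and 4 of 12 arrays correlated best with an array of their own number.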
